A study of Mus musculus with 5 samples.

Results

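Axon guidance ligands and receptors are described here as 71 protein-coding genes out of 55573 genes in the expression table. They were chosen by gene symbol, a rule that uses no measured value: 20 semaphorins, 11 plexins and neuropilins, 14 Eph receptors, 8 ephrins, 7 Slits and Robos, and 11 netrins and netrin receptors. By role, 37 encode ligands and 34 encode receptors, counting the ephrins, the transmembrane semaphorins and the netrin-G proteins as ligands. The study measured RNA by sequencing in 3 tumours of the genotype Th-Cre:MYC and in the normal pancreas from 2 littermates of wild type. In the tumour mice a Cre recombinase driven by the tyrosine hydroxylase (Th) promoter removes a stop cassette flanked by loxP sites, so that a MYC transgene under the broadly active CAG promoter is switched on. Tissue and genotype therefore differ together between the groups. The labels name the tumour tissue only as tumour, while the series' text calls it pancreatic, and they give neither age nor sex. Tumour replicates 1 and 2 share a number in their titles, and no label says whether they came from 1 mouse; the p-values below rest on the spread among 5 samples, part of which may be technical.

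Guidance molecules steer growing axons and migrating cells by attraction or repulsion. Semaphorins signal through plexins, with neuropilins as co-receptors for most secreted class 3 semaphorins. Membrane-bound ephrins bind Eph receptor tyrosine kinases on neighbouring cells, secreted Slits bind Robo receptors, and netrins bind Dcc, neogenin and the Unc5 receptors. Many of these genes are also used outside the nervous system, in blood vessels, epithelia and endocrine tissue, and the developing and adult pancreas expresses members of several families.

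The 2 normal libraries held 48848987 and 51669489 estimated counts, and the 3 tumour libraries 15074489, 12601496 and 6611967. Acinar genes took a large share of the normal libraries: the summed TPM (a transcript level per length, scaled to one total in every library) of 9 acinar markers was 315149 and 318073, against 10.2 to 742 in tumours. In tumours, 9 of 9 islet endocrine markers were higher, with a summed TPM of 12356 to 32012 against 2.82 and 3.79. Th, the gene whose promoter drives Cre, was at 0 counts in both normal libraries and at 6.19, 3.07 and 0.49 TPM in tumours, while the sympathoadrenal gene Dbh was at 0 counts in all 5 libraries. Trimmed-mean (TMM) scaling, which sets library sizes so that the typical gene does not differ, gave factors of 0.271 and 0.263 for normal pancreas and 2.19 to 2.57 for tumours. The median log2 fold change of tested protein-coding genes was 0.18 on this scale and 3.36 when counts were divided by library totals only. CPM below denotes TMM-scaled counts, which compare 1 gene between libraries, and "rose" and "fell" refer to this scale, with an adjusted p under 0.05.

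Of the 71 genes, 62 had enough counts to be tested. In tumours 30 of the 62 rose (48.4%), against 35.3% of all tested protein-coding genes, and 15 fell (24.2%), against 31.1%. The remaining 17 did not pass the test. The median log2 fold change of the 62 was 1.03, against 0.18 for protein-coding genes. A gene near 0 in normal pancreas entered the test only through its tumour counts. Among the 33 tested ligands 18 rose and 6 fell (median log2 fold change 1.15), and among the 29 tested receptors 12 rose and 9 fell (0.65). In CPM, all 3 tumours lay above both normal libraries for 33 of the 62 genes (53.2%, against 42.6% of protein-coding genes) and below both for 17 (27.4%, against 37.8%). With library totals only, 57 of the 62 were higher in tumours (91.9%, against 92.9% of protein-coding genes) and 2 were lower (3.23%, against 2.57%). All 30 genes that rose were also higher with upper-quartile scaling and with library totals only. The same held for all 4971 protein-coding genes that rose, so it does not set the members apart. Of the 15 that fell, 11 were higher with library totals only, 2 (Epha1 and Sema7a) did not pass, and 2 (Ntn1 and Epha7) were lower on each of these scales. After removal of the trend of fold change with gene length, 20 were higher (32.3%, against 24.1% of protein-coding genes) and 19 lower (30.6%, against 41.5%), with a median of 0.27 against -0.32. With limma on log2(TPM + 1), 36 were higher (58.1%, against 63.1% of protein-coding genes) and 6 lower (9.68%, against 7.61%). On log2(TPM + 0.1), 42 were higher (67.7%, against 67.2%) and 6 lower (9.68%, against 7.73%). The tested guidance genes had a median effective length of 3764.7 bases, against 2346.1 for tested protein-coding genes, and for those that rose it was 4239.2 bases.

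**Figure D1:**
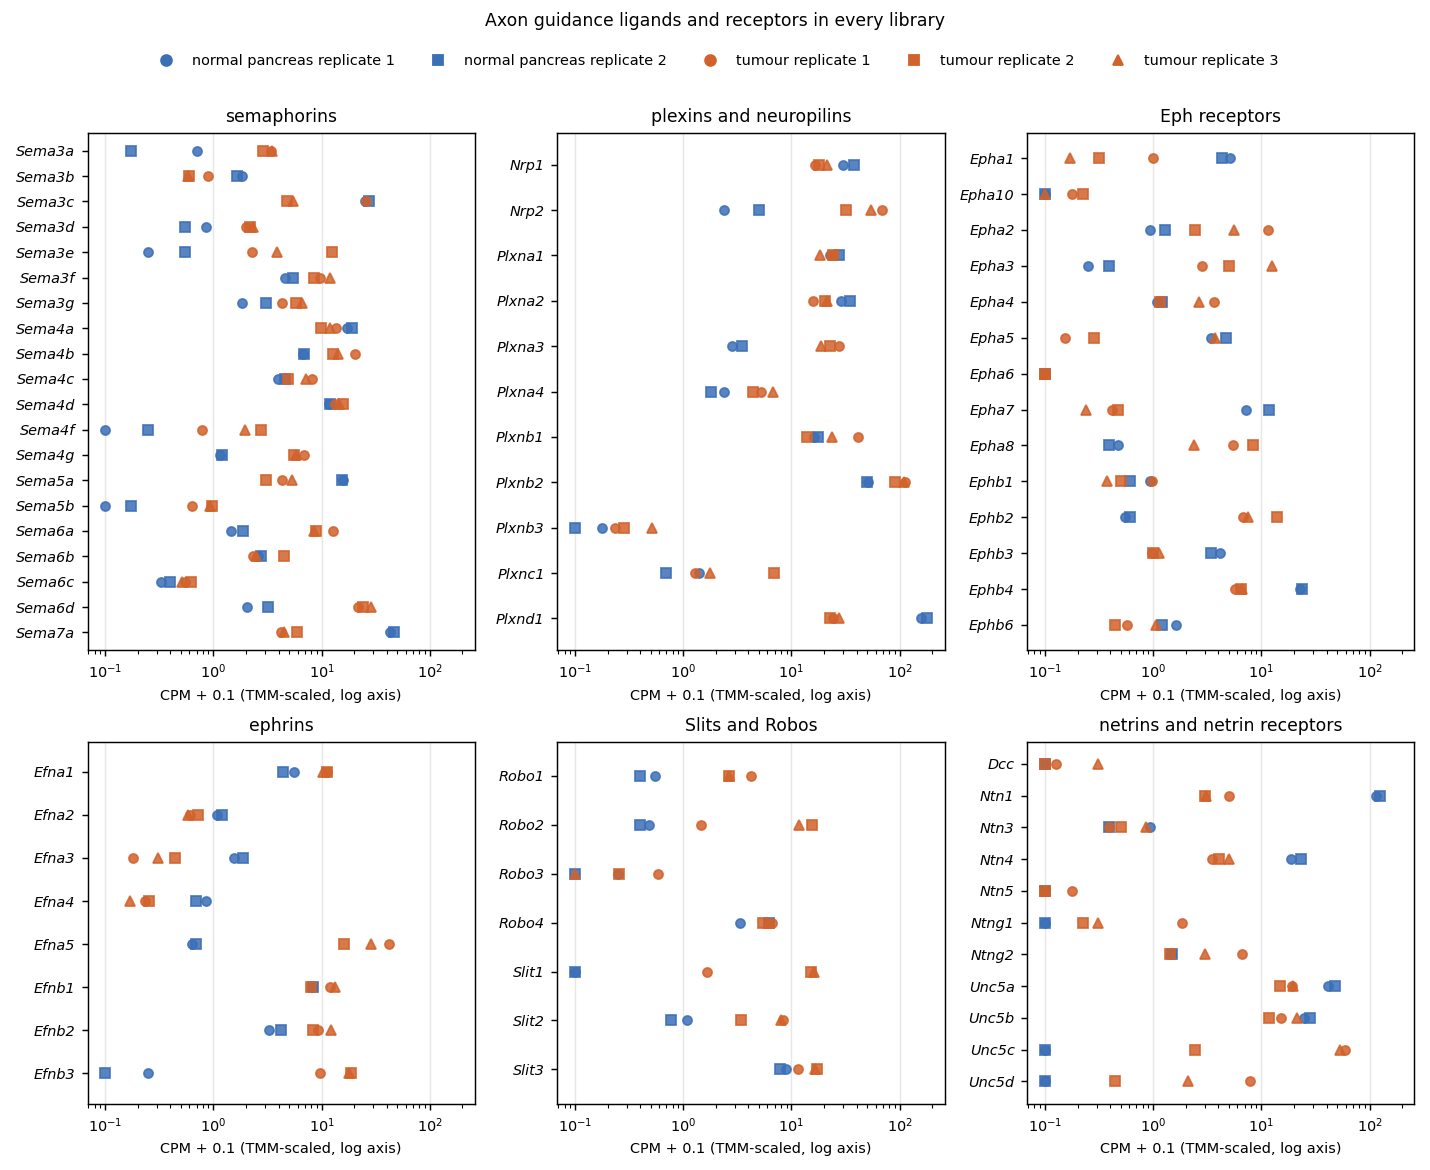
Each panel shows 1 family, with genes in rows and CPM + 0.1 (TMM-scaled, log axis) across; each point is 1 library, blue for normal pancreas and orange for tumour. All 3 tumours lie above both normal libraries for genes such as Efna5, Nrp2 and Sema6d, and below both for Ntn1, Epha7, Plxnd1 and Sema7a.

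**Figure D2:**
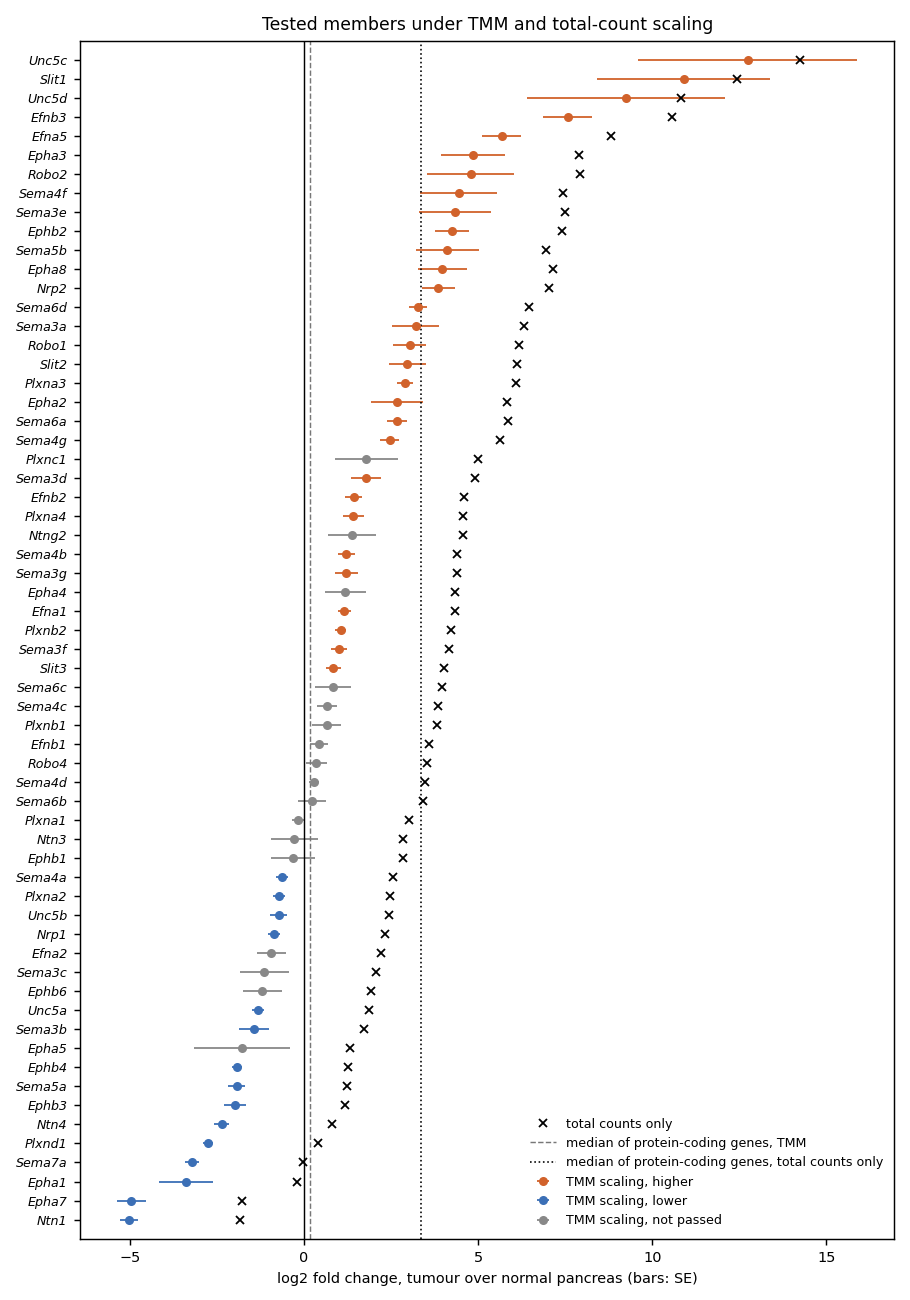
Fitted log2 fold changes of the 62 tested genes, tumour over normal pancreas, with TMM scaling (circles, bars are 1 SE, orange higher, blue lower, grey not passed) and with library totals only (crosses). The vertical lines mark the median of protein-coding genes, 0.18 and 3.36; Ntn1 and Epha7 are the 2 genes called lower on both scales, and the fitted values of Unc5c, Slit1 and Unc5d, at 0 counts in normal pancreas, are no bounds.

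Ntn1, the netrin with the highest TPM in normal pancreas, was low in tumours. Of the 4 secreted netrins, Ntn1 and Ntn4 fell, Ntn3 did not pass and Ntn5 was too low to test. Ntn1 (netrin-1, the founding ligand of Dcc and the Unc5 receptors; chromosome 11, 68209364 to 68400823 on GRCm38) stood at 116 and 124 CPM in normal pancreas and at 4.89, 2.94 and 2.98 CPM in tumours. Both normal libraries lay far above every tumour. Ntn1 fell by 5.03 ± 0.26 on the log2 scale (SE, adjusted p = 3.34e-05), and by 1.85 with library totals only (adjusted p = 0.000447). Per length it was the second highest guidance gene in normal pancreas, at 6.35 and 6.58 TPM, against 0.60 to 0.79 TPM in tumours. Ntn4, a netrin of basement membranes, was at 18.7 and 23.3 CPM in normal pancreas and at 3.40, 4.0 and 4.92 CPM in tumours, again without overlap. It fell by 2.37 ± 0.21 (SE, adjusted p = 0.000163), but was higher by 0.81 with library totals only (adjusted p = 0.0129). The summed TPM of the 4 netrins was 8.09 and 8.58 in normal pancreas, most of it from Ntn1, and 1.66 to 1.85 in tumours.

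The membrane-anchored netrin-G ligands, which bind their own synaptic partners rather than Dcc, were uneven among tumours. Ntng2 was at 1.36 and 1.40 CPM in normal pancreas and at 6.48, 1.33 and 2.91 CPM in tumours, and did not pass (log2 fold change 1.38 ± 0.69 (SE), adjusted p = 0.118). It passed without tumour replicate 2 (1.80, adjusted p = 0.0168), and 14% of its exonic bases are shared with another annotated gene on the same strand. Ntng1 had 0 counts in both normal libraries and 66, 4 and 3 in tumours, so most of its reads came from tumour replicate 1. Its pooled level was at least 7.73-fold higher in tumours, taking 3 counts over the normal libraries as the floor, and at least 1.34-fold without tumour replicate 1, 3.82-fold without normal replicate 2, 3.92-fold without normal replicate 1 and 11.8-fold without tumour replicate 2.

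Of the 4 Unc5 receptors, 2 fell, though neither with library totals only, and 2 rose. Unc5a and Unc5b, repulsive netrin receptors also known as dependence receptors, were already expressed in normal pancreas. Unc5a was at 41.2 and 47.4 CPM there and at 18.9, 14.9 and 19.6 CPM in tumours. It fell by 1.32 ± 0.17 (SE, adjusted p = 0.000755), but was higher by 1.86 with library totals only (adjusted p = 3.96e-05). In TPM the groups overlapped, at 3.94 and 4.07 in normal pancreas and 4.73, 3.57 and 3.89 in tumours. Unc5b, which is also used by endothelial cells, was at 24.9 and 27.8 CPM in normal pancreas and at 15.1, 11.6 and 21.1 CPM in tumours. It fell by 0.73 ± 0.25 (SE, adjusted p = 0.0391), a call that did not hold with upper-quartile scaling (adjusted p = 0.0636) or without either normal library (0.113 and 0.193) or tumour replicate 1 (0.0681), and it was higher by 2.43 with library totals only (adjusted p = 4.87e-05).

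Unc5c and Unc5d had no counts in either normal library. Unc5c (chromosome 3, 141465216 to 141834924) had 2250, 75 and 773 counts in tumours, or 59.8, 2.32 and 53.5 CPM. All 3 tumours lay above normal pancreas, but tumour replicate 2 was 25.7-fold below tumour replicate 1. Its pooled level was at least 328-fold higher in tumours (adjusted p = 0.0152), at least 162-fold without tumour replicate 1 and at least 519-fold without tumour replicate 2. Unc5d had 292, 11 and 29 counts in tumours, or 7.76, 0.341 and 2.01 CPM. Its pooled level was at least 35.2-fold higher (adjusted p = 0.0315), at least 7.65-fold without tumour replicate 1 and at least 55.1-fold without tumour replicate 2. The floor of 3 counts was kept when a normal library was left out, which lowers any such bound whatever the gene. Leaving out 1 normal library thus moved the Unc5c and Unc5d bounds down, to at least 162-fold and 17.4-fold at the lowest. Neither gene then passed, with adjusted p of 0.0612 and 0.0616 for Unc5c without normal replicate 1 and 2, and 0.105 for Unc5d without either; Unc5d also missed without tumour replicate 3 (0.0503) and with the length trend removed (0.064). With limma on log2(TPM + 1) neither Unc5c (adjusted p = 0.0557) nor Unc5d (0.164, and 0.061 on log2(TPM + 0.1)) passed. Dcc, the attractive netrin receptor, had 0 counts in normal pancreas and 1, 0 and 3 in tumours. Neo1 (neogenin), which was listed among the pathway genes below, was at 33.6 and 34.5 CPM in normal pancreas and at 37.4, 27.2 and 32.5 CPM in tumours and did not pass (log2 fold change -0.07 ± 0.17 (SE), adjusted p = 0.722). Across the 8 tested netrin ligands and receptors, 2 rose and 4 fell.

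**Figure D3:**
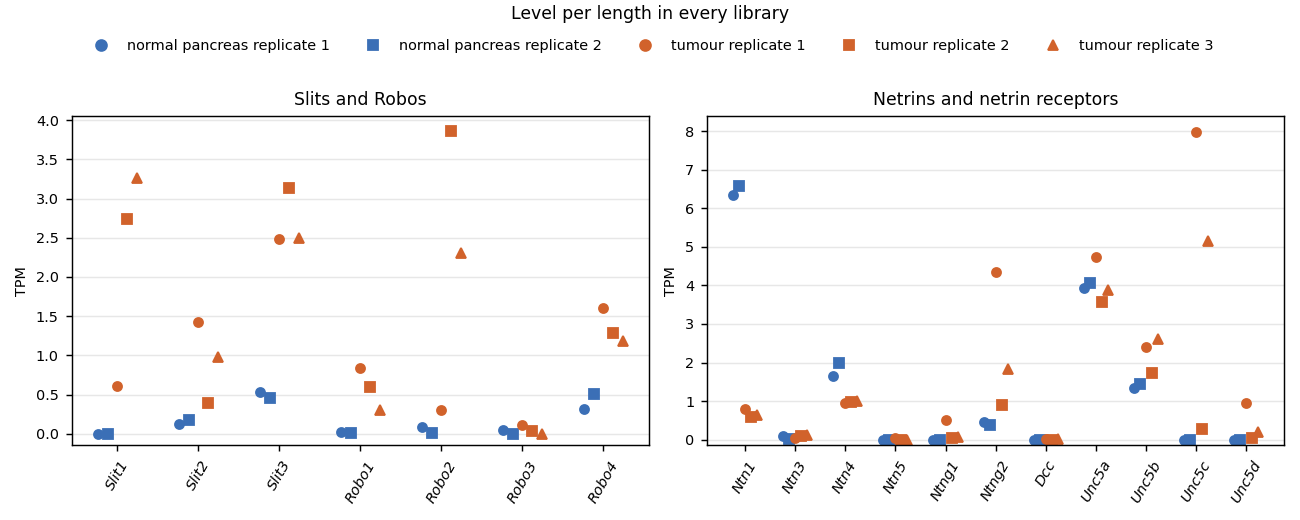
TPM (level per length, linear axis) of each Slit, Robo, netrin and netrin receptor gene, with 1 point per library, blue for normal pancreas and orange for tumour. Ntn1 is at 6.35 and 6.58 TPM in normal pancreas and under 1 in tumours, Unc5c runs from 0.28 to 7.99 TPM among tumours, and Slit1 and Robo2 are lowest among tumours in tumour replicate 1.

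Of 6 tested Slits and Robos, 5 rose, none fell, and Robo4 did not pass, with a median log2 fold change of 3.0. All 3 Slit ligands rose. Slit1 (chromosome 19, 41600257 to 41743665) had 0 counts in both normal libraries and 59, 481 and 234 in tumours, or 1.57, 14.9 and 16.2 CPM. Tumour replicate 1 lay far below the other tumours. The pooled Slit1 level was at least 82.0-fold higher in tumours (adjusted p = 0.0114), and at least 137-fold without tumour replicate 1. Slit1 bounds without other libraries ran from 40.5-fold (without normal replicate 2) and 41.5-fold (without normal replicate 1) through 50.3-fold without tumour replicate 2 to 69.0-fold without tumour replicate 3. Those without a normal library are lower because the floor of 3 counts was kept. Slit2 was at 0.983 and 0.663 CPM in normal pancreas and at 8.32, 3.31 and 7.83 CPM in tumours. It rose by 2.97 ± 0.53 (SE, adjusted p = 0.00319), with every tumour above both normal libraries. Slit3 had the highest mean TPM of the Slits in both tissues, at 0.53 and 0.46 TPM in normal pancreas and 2.48, 3.14 and 2.50 TPM in tumours. In CPM it stood at 8.85 and 7.81 against 11.4, 17.1 and 16.3, a rise of 0.84 ± 0.22 (SE, adjusted p = 0.0146). The Slit3 call was lost without either normal library (adjusted p = 0.0645 and 0.1) and with the length trend removed, where its value was -0.11 (adjusted p = 0.681).

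Among the Slit receptors, Robo1 was at 0.454 and 0.295 CPM in normal pancreas and at 4.12, 2.57 and 2.56 CPM in tumours. It rose by 3.03 ± 0.48 (SE, adjusted p = 0.00181). Robo2, which with Robo1 has a known part in keeping islet architecture, was at 0.378 and 0.295 CPM in normal pancreas and at 1.36, 15.5 and 11.7 CPM in tumours. Like Slit1, it was lowest among tumours in replicate 1, by 11.4-fold against the highest. Robo2 rose by 4.79 ± 1.25 (SE, adjusted p = 0.014), and did not pass without normal replicate 1 (adjusted p = 0.0822) or 2 (0.0903), or with limma on log2(TPM + 1) (0.0523). Robo4, the endothelial member, overlapped between groups, at 3.25 and 6.04 CPM against 6.51, 5.39 and 5.96 CPM (log2 fold change 0.36 ± 0.30 (SE), adjusted p = 0.322). Robo3 had 2 and 0 counts in normal pancreas and 18, 5 and 0 in tumours, too few to test.

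Among the ephrins, 4 of the 6 tested rose and none fell, with a median log2 fold change of 1.29. Summed over 8 ephrins, TPM was 2.97 and 2.64 in normal pancreas and 26.2, 20.3 and 20.1 in tumours. Efna5, a lipid-anchored A-type ephrin known from cell contacts between insulin-producing cells as well as from neural maps, was at 0.529 and 0.589 CPM in normal pancreas and at 42.0, 16.1 and 28.4 CPM in tumours. Each tumour lay well above both normal libraries. It rose by 5.68 ± 0.56 (SE, adjusted p = 0.00027). Efnb3, a transmembrane B-type ephrin, had 2 and 0 counts in normal pancreas and 364, 600 and 258 in tumours. Its pooled level was 194-fold higher in tumours (95% exact binomial interval 53.6 to 1605, which covers counting error only; adjusted p = 0.000208). Efnb3 was 95.8-fold higher without normal replicate 2, where both of its normal counts remained, and at least 65.6-fold higher without normal replicate 1. Efna1, an ephrin found on endothelial and epithelial cells, had the highest mean TPM of the family in both tissues, at 1.28 and 0.96 TPM against 7.77, 7.28 and 5.49 TPM. In CPM it was at 5.52 and 4.27 against 11.2, 11.2 and 10.2, a rise of 1.15 ± 0.19 (SE, adjusted p = 0.00214). Efnb2, the arterial ephrin, was at 3.18 and 4.12 CPM in normal pancreas and at 9.20, 8.21 and 12.1 CPM in tumours, a rise of 1.42 ± 0.25 (SE, adjusted p = 0.00308) that did not pass with the length trend removed (0.54, adjusted p = 0.0911).

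The other 4 ephrins did not pass or were not tested. Efnb1 overlapped, at 8.01 and 8.18 CPM against 11.9, 7.80 and 13.3 CPM (log2 fold change 0.43, adjusted p = 0.169), and passed without tumour replicate 2 (0.64, adjusted p = 0.0143). Efna2 stood at 0.983 and 1.10 CPM in normal pancreas and at 0.505, 0.619 and 0.485 CPM in tumours, which all lay lower, but did not pass (log2 fold change -0.94, adjusted p = 0.0846). Efna3 and Efna4 were left out by the filter on low counts. Efna3 had 19 and 24 counts in normal pancreas and 3, 11 and 3 in tumours, and Efna4 had 10 and 8 against 5, 5 and 1. Without the filter their log2 fold changes were -2.87 (adjusted p = 0.00758) and -2.31 (adjusted p = 0.0234). Of their exonic bases, 14.1% and 10.5% are shared with genes on the opposite strand, and no source used here says whether the counting used strand.

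Eph receptors moved in both directions: of 12 tested, 4 rose, 4 fell and 4 did not pass, with a median log2 fold change of -0.75, which was 2.40 with library totals only. The 4 that rose were Ephb2, Epha8, Epha3 and Epha2. Ephb2, a receptor for B-type ephrins, was at 0.454 and 0.516 CPM in normal pancreas and at 6.67, 13.8 and 7.41 CPM in tumours. It rose by 4.25 ± 0.49 (SE, adjusted p = 0.000485) and had the highest mean TPM of the Eph receptors in tumours, with 1.63, 2.52 and 1.28 TPM. Epha8 was at 0.378 and 0.295 CPM in normal pancreas and at 5.37, 8.27 and 2.29 CPM in tumours, a rise of 3.98 ± 0.70 (SE, adjusted p = 0.00294). Epha3, a receptor for A-type ephrins such as Efna5, was at 0.151 and 0.295 CPM against 2.74, 4.96 and 12.5 CPM, a rise of 4.85 ± 0.92 (SE, adjusted p = 0.0041) that became 4.10 without tumour replicate 3. Epha2, an epithelial Eph receptor, was at 0.832 and 1.18 CPM against 11.4, 2.32 and 5.54 CPM. It rose by 2.67 ± 0.74 (SE, adjusted p = 0.0179), by 1.94 without tumour replicate 1, and did not pass without normal replicate 1 (adjusted p = 0.111) or 2 (0.0799) or with the length trend removed (1.91, adjusted p = 0.0608).

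Epha7 fell furthest in this family. It was at 7.18 and 11.6 CPM in normal pancreas and at 0.319, 0.372 and 0.138 CPM in tumours, with no overlap. Epha7 fell by 4.96 ± 0.41 (SE, adjusted p = 0.000134), and by 1.79 with library totals only (adjusted p = 0.0134). Ephb4, the venous partner of Efnb2 and the Eph receptor with the highest TPM in normal pancreas (1.71 and 1.76 TPM), was at 22.5 and 23.8 CPM there and at 5.63, 6.32 and 6.51 CPM in tumours. It fell by 1.91 ± 0.14 (SE, adjusted p = 9.73e-05), but was higher by 1.27 with library totals only (adjusted p = 0.00055). Ephb3 was at 4.08 and 3.31 CPM against 0.877, 0.898 and 1.04 CPM. It fell by 1.98 ± 0.32 (SE, adjusted p = 0.00209), but was higher by 1.19 with library totals only (adjusted p = 0.0227). Epha1 was at 4.99 and 4.27 CPM against 0.904, 0.217 and 0.0692 CPM; it fell by 3.39 ± 0.77 (SE, adjusted p = 0.00808), by 4.76 without tumour replicate 1, and did not pass without normal replicate 1 (adjusted p = 0.0512) or with library totals only (-0.21, adjusted p = 0.809).

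Epha5, Epha4, Ephb1 and Ephb6 did not pass. Epha5 was at 3.33 and 4.57 CPM in normal pancreas and at 0.0532, 0.186 and 3.60 CPM in tumours, so that tumour replicate 3 alone lay within the normal range. Without that library its log2 fold change was -4.99 (adjusted p = 0.00234), against -1.79 with it (adjusted p = 0.283). Ephb6, a receptor with an inactive kinase domain, passed without tumour replicate 3 (-1.63, adjusted p = 0.0387), and Epha4 without tumour replicate 2 (1.56, adjusted p = 0.0144). Epha6 was at 0 counts in all 5 libraries and Epha10 had 0, 0, 3, 4 and 0 counts.

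All 20 semaphorins were tested: 11 rose, 4 fell and 5 did not pass, with a median log2 fold change of 1.11. The transmembrane class 6 semaphorins, ligands of the A-type plexins, had a summed TPM of 0.40 and 0.53 in normal pancreas and 5.77 to 7.0 in tumours. Sema6d was at 1.97 and 3.09 CPM in normal pancreas and at 21.4, 24.2 and 28.4 CPM in tumours. It rose by 3.28 ± 0.26 (SE, adjusted p = 0.000113), with the 3 tumours close together. Sema6a was at 1.36 and 1.77 CPM against 12.7, 8.83 and 8.38 CPM, a rise of 2.67 ± 0.30 (SE, adjusted p = 0.000428). Sema6b (log2 fold change 0.22, adjusted p = 0.639) and Sema6c (0.83, adjusted p = 0.192) did not pass.

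Of the 6 class 4 semaphorins, which are membrane-bound and signal mainly through B-type plexins, 3 rose and 1 fell. Sema4g was at 1.06 and 1.10 CPM in normal pancreas and at 6.78, 5.42 and 5.75 CPM in tumours, a rise of 2.46 ± 0.27 (SE, adjusted p = 0.000424). Sema4b was at 6.58 and 6.85 CPM against 20.1, 12.8 and 14 CPM, a rise of 1.22 ± 0.24 (SE, adjusted p = 0.00465) that did not pass with the length trend removed (0.47, adjusted p = 0.124). Sema4f had 0 and 2 counts in normal pancreas and 26, 86 and 27 in tumours, a pooled ratio of 22.1 (95% exact binomial interval 6.0 to 184; adjusted p = 0.0117), and did not pass without normal replicate 1 (adjusted p = 0.0643). The Sema4f ratio was 11.2 without normal replicate 1, at least 7.26 without normal replicate 2, 13.6 without tumour replicate 2 and 32.4 without tumour replicate 1. The direction of Sema4a depended on the scale. It was at 17.1 and 18.9 CPM in normal pancreas and at 13.4, 9.76 and 11.8 CPM in tumours, a fall of 0.63 on the log2 scale with an SE of 0.18 (adjusted p = 0.0185). Yet it had the highest mean TPM of the semaphorins in tumours, at 7.82, 5.51 and 8.63 TPM against 2.27 and 3.26 TPM, and it was higher by 2.55 with library totals only (adjusted p = 2.47e-05). The fall was also lost without normal replicate 1 (adjusted p = 0.0676), normal replicate 2 (0.133) or tumour replicate 3 (0.0507). Sema4d lay just above both normal libraries in every tumour, at 11.6 and 11.9 against 13.1, 15.7 and 14.5 CPM, without passing (log2 fold change 0.29, adjusted p = 0.122). Sema4c also did not pass (0.66, adjusted p = 0.0728), and did so without tumour replicate 2 (0.86, adjusted p = 0.016).

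Among the 7 secreted class 3 semaphorins, which mostly act through neuropilins, 5 rose and 1 fell. Sema3a, the prototypic repellent, had 8 and 1 counts in normal pancreas and 125, 90 and 49 in tumours. It rose by 3.21 ± 0.68 (SE, adjusted p = 0.00608), by 5.33 without normal replicate 1 and by 2.39 without normal replicate 2. Sema3e, which binds Plxnd1 directly, was at 0.151 and 0.442 CPM in normal pancreas and at 2.15, 12.3 and 3.81 CPM in tumours, highest in tumour replicate 2. Sema3e rose by 4.33 ± 1.04 (SE, adjusted p = 0.0102), by 3.28 without tumour replicate 2 and by 5.30 without normal replicate 2, and did not pass without normal replicate 1 (adjusted p = 0.0766). Sema3f, a ligand of Nrp2, was at 4.46 and 5.38 CPM against 9.54, 8.42 and 11.8 CPM. It rose by 1.0 ± 0.22 (SE, adjusted p = 0.00706). Sema3d and Sema3g, the latter known from endothelium, rose by 1.78 and 1.22. Leaving out normal replicate 1 ended the calls of Sema3f (adjusted p = 0.0639) and Sema3g (0.114), and leaving out normal replicate 2 that of Sema3d (0.0677). With the length trend removed, Sema3d (adjusted p = 0.171), Sema3f (0.0575) and Sema3g (0.412) did not pass, and of the 7 class 3 genes 2 were higher and 2 lower. Sema3b fell by 1.44 ± 0.43 (SE, adjusted p = 0.0236), from 1.74 and 1.55 CPM to 0.797, 0.496 and 0.485 CPM. That fall did not pass without normal replicate 1 (adjusted p = 0.119), normal replicate 2 (0.0896) or tumour replicate 3 (0.0637), and with library totals only Sema3b was higher by 1.73 (adjusted p = 0.0107). Sema3c separated the tumours: tumour replicate 1, at 25.5 CPM, lay within the normal range of 25.3 and 27.5 CPM, and tumour replicates 2 and 3 were at 4.68 and 5.33 CPM. It did not pass (log2 fold change -1.14, adjusted p = 0.195), but did so without tumour replicate 1 (-2.40, adjusted p = 8.21e-05).

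The remaining semaphorins were Sema7a and the class 5 pair. Sema7a, a lipid-anchored semaphorin that binds integrins and Plxnc1 and is also known from immune cells, had the highest TPM of the family in normal pancreas (4.17 and 4.44 TPM). It was at 42.6 and 46.9 CPM there and at 4.12, 5.85 and 4.43 CPM in tumours, and fell by 3.22 ± 0.19 (SE, adjusted p = 4.52e-05), but not with library totals only (-0.03, adjusted p = 0.918). Sema5a was at 15.7 and 15.4 CPM in normal pancreas and at 4.20, 2.97 and 5.19 CPM in tumours. Sema5a fell by 1.93 ± 0.24 (SE, adjusted p = 0.000735), but was higher by 1.24 with library totals only (adjusted p = 0.00312). Sema5b moved the other way from very few reads, with 0 and 1 counts in normal pancreas and 20, 28 and 12 in tumours. Its pooled ratio was 19.1 (95% exact binomial interval 3.29 to 765; adjusted p = 0.00735), 9.66 without normal replicate 1 and at least 3.14 without normal replicate 2.

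Among the semaphorin receptors, 4 of 10 tested plexins and neuropilins rose and 3 fell, with a median log2 fold change of 0.86. Plxnb2, a class 4 semaphorin receptor of epithelia, had the highest TPM of all 71 genes in tumours, at 25.5, 18.6 and 18.6 TPM against 4.24 and 3.69 TPM in normal pancreas. In CPM it was at 50.4 and 49.5 against 113, 89.5 and 110.3, a rise of 1.06 ± 0.16 (SE, adjusted p = 0.00159). With the length trend removed Plxnb2 did not pass (0.22, adjusted p = 0.236). Plxna3, which with neuropilins receives class 3 semaphorins, was at 2.72 and 3.39 CPM in normal pancreas and at 27.4, 22.6 and 18.6 CPM in tumours, a rise of 2.90 ± 0.24 (SE, adjusted p = 0.000136). Plxna4 was at 2.27 and 1.69 CPM against 5.10, 4.27 and 6.65 CPM, a rise of 1.42 ± 0.31 (SE, adjusted p = 0.0074). The Plxna4 call was lost without normal replicate 2 (adjusted p = 0.0577), and its direction turned with the length trend removed (-0.72, adjusted p = 0.0655).

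Plxnd1, a receptor best known from blood vessels, had the highest TPM of all 71 genes in normal pancreas, at 10.6 and 11.8 TPM, against 3.90, 3.33 and 3.87 TPM in tumours. In CPM it was at 156 and 178 against 24.2, 22.7 and 27.3, with no overlap. It fell by 2.76 ± 0.15 (SE, adjusted p = 3.88e-05), but was higher by 0.42 with library totals only (adjusted p = 0.0206). Plxna2 was at 28.4 and 34.4 CPM against 15.9, 20.3 and 21.3 CPM. It fell by 0.71 ± 0.18 (SE, adjusted p = 0.0122), not without normal replicate 2 (adjusted p = 0.115), and was higher by 2.46 with library totals only (adjusted p = 1.95e-05). Plxna1 and Plxnb1 did not pass, at log2 fold changes of -0.18 (adjusted p = 0.388) and 0.65 (0.209); Plxnb1 passed without tumour replicate 2 (0.97, adjusted p = 0.0187). Plxnc1, the Sema7a receptor, was at 1.29 and 0.589 CPM against 1.20, 6.78 and 1.66 CPM (log2 fold change 1.79, adjusted p = 0.118), and passed without tumour replicate 1 (2.21, adjusted p = 0.0389). Plxnb3 had 1 and 0 counts in normal pancreas and 5, 6 and 6 in tumours, too few to test.

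The 2 neuropilins moved apart. Nrp2, the co-receptor for Sema3f, was at 2.27 and 4.86 CPM in normal pancreas and at 69.3, 31.7 and 54.6 CPM in tumours, and every tumour lay above both normal libraries. It rose by 3.86 ± 0.48 (SE, adjusted p = 0.000678), and by 4.53 without normal replicate 2. Nrp1, the co-receptor for Sema3a and for vascular endothelial growth factor, was at 29.6 and 37.6 CPM against 16.6, 17.9 and 21.4 CPM. It fell by 0.86 ± 0.18 (SE, adjusted p = 0.00551), not without normal replicate 2 (adjusted p = 0.063), and was higher by 2.32 with library totals only (adjusted p = 1.6e-05). In TPM, Nrp1 was at 2.68 and 3.29 in normal pancreas and 4.40, 4.51 and 4.46 in tumours, below Nrp2 only in tumour replicates 1 and 3, where Nrp2 was at 10.2 and 6.15 TPM.

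Several guidance genes separated the tumours from one another. Among the 52 tested members with a mean tumour CPM of at least 1, 8 (15.4%) differed over 5-fold between the highest and the lowest tumour, against 481 of 12501 protein-coding genes (3.85%). The median ratio was 1.63 for these members and 1.37 for those protein-coding genes. The members and those protein-coding genes were not matched for level, and such ratios are less certain at low counts. Epha5, with the widest ratio, had only 2, 6 and 52 counts in tumour replicates 1, 2 and 3. The 8 were Epha5 (67.7-fold), Unc5c (25.7), Unc5d (22.8), Robo2 (11.4), Slit1 (10.3), Sema3e (5.70), Plxnc1 (5.67) and Sema3c (5.45). Unc5c, Unc5d and Sema3c were highest in tumour replicate 1 and lowest in tumour replicate 2. Robo2, Sema3e and Plxnc1 were highest in tumour replicate 2 and lowest in replicate 1. Slit1 and Epha5 were highest in replicate 3 and lowest in replicate 1. With 1 library per tumour these differences have no replicate check. The 2 tumours that share a number in their titles stood at opposite ends for 6 of the 8 genes.

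**Figure D4:**
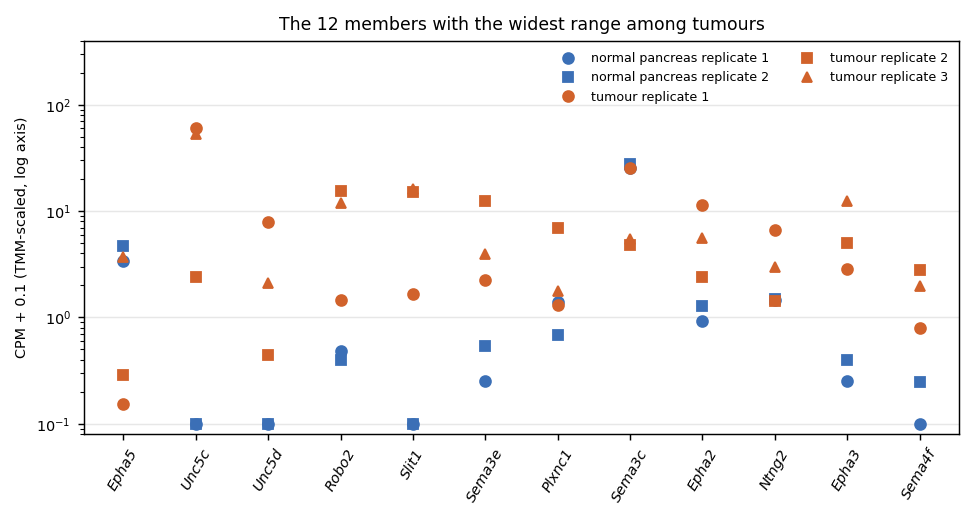
CPM + 0.1 (TMM-scaled, log axis) in each library for the 12 members with the widest ratio between tumours, ordered by that ratio from Epha5 (67.7-fold) on. Orange symbols are the 3 tumours and blue symbols the 2 normal libraries; Unc5c and Unc5d are lowest in tumour replicate 2, and Slit1 and Robo2 in tumour replicate 1.

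Promoter sequences are shown for 4 genes that rose, because MYC binds DNA as a dimer with MAX at the E-box CACGTG, and members with and without these letters near the start can be set side by side. Windows of 250 bases before the annotated start were taken from RefSeq (GRCm38.p6), where 61 of the 71 genes had at least 1 window. CACGTG, which reads the same on both strands, stood in a window of 1854 of 27025 genes (6.86%) and of 4 of the 61 members (6.56%): Epha8, Robo2, Sema6d and Sema4b. Of the members that rose, 4 of 24 with a window held it, and of those that fell, 0 of 13. The shares among all protein-coding genes that rose or fell were not computed. A link between the letters and the direction therefore cannot be read from these small counts. A match is a description of letters and was not tested as a binding site. The windows below run 5′ to 3′ on the strand of the gene and end at the base before the start, with the E-box in capitals. Epha8 lies at chr4:136956817-136957066 on the minus strand and Sema6d at chr2:124089719-124089968 on the plus strand (1 of its 2 starts). Robo2 lies at chr16:75447294-75447543 on the minus strand (1 of its 3 annotated starts). That window is outside the annotated Robo2 gene of the counted identifier (chromosome 16, 73891839 to 74411825). Neither the window at the start of that gene (74411826 to 74412075) nor the remaining Robo2 window has an E-box. Efna5, at chr17:62881318-62881567 on the minus strand, has no E-box in its window.
Epha8: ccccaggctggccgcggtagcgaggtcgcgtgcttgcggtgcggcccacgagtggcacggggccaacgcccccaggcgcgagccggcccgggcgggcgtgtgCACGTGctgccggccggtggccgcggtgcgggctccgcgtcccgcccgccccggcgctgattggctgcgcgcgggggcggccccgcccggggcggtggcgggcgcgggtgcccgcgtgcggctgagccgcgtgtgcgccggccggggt
Robo2: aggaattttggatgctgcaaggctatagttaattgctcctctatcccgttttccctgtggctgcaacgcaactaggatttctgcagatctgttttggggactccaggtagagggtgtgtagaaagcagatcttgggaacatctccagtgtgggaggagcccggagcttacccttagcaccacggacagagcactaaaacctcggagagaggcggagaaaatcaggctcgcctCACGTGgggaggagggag
Sema6d: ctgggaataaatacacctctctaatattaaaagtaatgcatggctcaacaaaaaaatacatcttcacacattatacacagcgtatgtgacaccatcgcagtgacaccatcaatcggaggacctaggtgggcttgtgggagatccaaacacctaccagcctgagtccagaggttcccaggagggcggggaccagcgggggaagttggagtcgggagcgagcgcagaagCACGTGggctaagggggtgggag
Efna5: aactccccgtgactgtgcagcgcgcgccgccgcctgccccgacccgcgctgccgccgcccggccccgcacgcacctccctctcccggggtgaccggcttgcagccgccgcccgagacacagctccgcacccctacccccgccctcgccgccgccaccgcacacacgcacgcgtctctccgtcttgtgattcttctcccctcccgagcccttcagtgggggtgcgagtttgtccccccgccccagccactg
The E-box began 148 bases before the start in Epha8 and 23 bases in Sema6d. In Robo2 it began 18 bases before the start that lies outside the annotated gene. The log2 fold changes of these 3 genes were 3.98, 4.79 and 3.28, that of Sema4b, the fourth with the letters, was 1.22, and that of Efna5, without them, was 5.68.

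Genes that act with or below these receptors were listed separately, with 74 genes, of which 68 were tested. In tumours 29 rose, 18 fell and 21 did not pass, against the same shares of protein-coding genes as above (35.3% and 31.1%), with a median log2 fold change of 0.43. After removal of the length trend, 17 were higher and 27 lower, with a median of -0.28. Without either normal library 10 fell, and with library totals only 63 were higher and 0 lower. Pak3, a kinase below Rac in growth cones, had the smallest p of the list; it was at 0.378 and 0.368 CPM in normal pancreas and at 107, 88.4 and 136 CPM in tumours, a rise of 8.19 ± 0.33 (SE, adjusted p = 2.37e-05). Dpysl2, a collapsin response mediator that acts on microtubules after Sema3a, was at 1.44 and 1.55 CPM against 51.5, 59.9 and 73.4 CPM, a rise of 5.36 ± 0.25 (SE, adjusted p = 2.7e-05). Dscam, an adhesion molecule that also binds netrin, had 0 counts in both normal libraries and 671, 576 and 374 in tumours, a pooled level at least 172-fold higher (adjusted p = 7.67e-05), and at least 84.7-fold higher without normal replicate 2. Among those that fell, Flrt2, a ligand of Unc5 receptors, went from 15 and 16.5 CPM to 1.94, 2.29 and 2.29 CPM, a fall of 2.86 on the log2 scale with an SE of 0.18 (adjusted p = 5.38e-05; 0.32 with library totals only, adjusted p = 0.277). Erbb2, a receptor tyrosine kinase that associates with B-type plexins, fell by 3.17 ± 0.26 (SE, adjusted p = 0.000133; 0.991 with library totals only), and Gipc1, an adaptor that binds neuropilins and plexins, fell by 1.48 ± 0.13 (SE, adjusted p = 0.00018) but was higher by 1.70 with library totals only.

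Several members are used by vessels and stroma, so markers of these and other cell types are given for both groups. Among 15 endothelial markers, 8 rose, 2 fell and 5 did not pass, with a median log2 fold change of 0.62. Over all tested protein-coding genes 35.3% rose and 31.1% fell, with a median of 0.18. With the length trend removed, 5 endothelial markers were higher and 5 lower, with a median of -0.11 against -0.32 for protein-coding genes. With limma on log2(TPM + 1), 63.1% of protein-coding genes were higher, so a higher TPM in tumours was common. The summed TPM of the endothelial markers was 23.5 and 27.7 in normal pancreas and 74.8 to 88.2 in tumours. Their summed TMM-scaled CPM overlapped, at 200.1 and 264 in normal pancreas and 262, 251 and 302 in tumours. Cldn5 had 4 and 0 counts in normal pancreas, and no other endothelial marker was at 0 in any library. Of the members known from endothelium, Efna1, Efnb2 and Sema3g rose, Robo4 did not pass, and Plxnd1, Nrp1, Ephb4 and Unc5b fell, though all 4 were higher with library totals only. Of 12 fibroblast and pericyte markers, 8 rose and 3 fell, with a summed TPM of 40.6 and 50.3 in normal pancreas and 144 to 212 in tumours. Of 10 tested immune markers, 1 rose and 1 fell, with a summed TPM of 27.5 and 59.6 against 55.8 to 137. Among 10 neuron and sympathoadrenal markers, 4 of 6 tested rose, with a summed TPM of 3.19 and 4.42 against 49.2 to 54.9. The part of these cell types in the results was not tested. In these bulk samples, fewer cells of a type and less RNA per cell cannot be told apart.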

How the data were processed

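RNA of 3 tumours and 2 normal pancreas samples was sequenced; groups come from the tissue and genotype labels. The submitters' processing notes name RSEM 1.31, STAR 2.7 and Trim Galore 0.60, and the builds GRCm38 and mm10; annotation release and strandedness: not given in the sources used here. For each gene the authors deposited expected counts, which RSEM estimates and splits among genes that share reads, TPM and the effective length in bases, another kind of value used only for the length trend.

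Rounded estimated counts went into edgeR 4.0.16 under R 4.3.3 (quasi-likelihood, glmQLFit and glmQLFTest; TMM; filterByExpr defaults; Benjamini-Hochberg over 16810 genes; threshold 0.05). The SE was computed as the size of the log2 fold change over the square root of F. Ratios for genes with 1 to 3 counts in normal pancreas carry exact binomial intervals, and genes at 0 there are given as lower bounds. Their floor was 3 counts over the normal libraries used, and it stayed at 3 counts when 1 was left out. Bounds without 1 normal library are therefore lower by construction. DESeq2 1.42.0 and limma 3.58.1 on log2(TPM + 1) or log2(TPM + 0.1) were alternatives, as were other scalings, filters and left-out libraries. The edgeR (with TMM), DESeq2 and limma fits were also run on simulated counts. The other scalings, the length trend, the lower bounds and the binomial intervals were not tested in that way. A shift in composition like that of the acinar genes was not tested there either. The members and lists were chosen with earlier results of these data known. Genes given with full values were, per family, up to 4 with the smallest p in each direction, those with the highest mean TPM in either tissue, and those whose call changed side with another scaling; other members that are singled out were named after their values were seen. Gene coordinates are from GENCODE M21 (GRCm38), which held all 71 member identifiers.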

Additional observations from a re-analysis of the deposited data

How the results depend on the processing

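DESeq2, no filter on low counts and protein-coding genes only changed no member's call among the 62 tested, and upper-quartile scaling ended the call of Unc5b and added Sema4c and Sema4d. With library totals only, 57 members were higher and 2 lower, the median log2 fold change was 4.20, and 63 pathway genes were higher and 0 lower. On log2(TPM + 1) and log2(TPM + 0.1), limma called 6 and 6 members lower, 49 and 50 pathway genes higher and 5 and 5 lower, and the member median was 1.74 with the smaller pseudocount. With the length trend removed, 17 of 68 pathway genes were higher and 27 lower, with a median log2 fold change of -0.28. Of protein-coding genes, 24.1% were then higher and 41.5% lower, with a median of -0.32. The member median was 0.27. Leaving out 1 library gave 21 to 36 members higher, 10 to 17 lower, 21 to 29 pathway genes higher and 10 to 18 lower (10 without either normal library), and medians of 0.87 to 1.05; the 1 normal library then left is assumed to vary like the tumours. With 1 library left out, 63 to 66 members and 67 to 68 pathway genes were tested. Without either normal library, fewer protein-coding genes were also called in each direction, so fewer calls do not set the members apart. Without tumour replicate 1, 2 and 3, 4975 of 14021, 4932 of 14043 and 4796 of 14376 protein-coding genes were higher. Those lower numbered 4337, 4467 and 4045. The protein-coding median ran from 0.10 to 0.22 over these fits. Calls lost without 1 library stand beside each gene in the report. Summing tumour replicates 1 and 2 ended no call and added 7 among the 62 genes, and Efna3 (lower) and Ntng1 (higher), then also tested, passed. Among genes called on either of the scales compared, the direction turned with library totals only for Efna2 (2.23), Ephb1 (2.86), Ephb3 (1.19), Ephb4 (1.27), Ephb6 (1.94), Nrp1 (2.32), Ntn3 (2.83), Ntn4 (0.81), Plxna1 (3.01), Plxna2 (2.46), Plxnd1 (0.42), Sema3b (1.73), Sema3c (2.07), Sema4a (2.55), Sema5a (1.24), Unc5a (1.86) and Unc5b (2.43). It turned with the length trend removed for Plxna4 (-0.72), Sema4d (-0.44) and Slit3 (-0.11). On log2(TPM + 1) and log2(TPM + 0.1) it turned for Nrp1 (0.46 and 0.57), Plxna1 (0.86 and 1.30), Plxna2 (0.40 and 0.67), Sema4a (1.14 and 1.37), Unc5a (0.0103 and 0.0109) and Unc5b (0.43 and 0.64). Genes called on neither scale also turned: Epha5 with library totals only, Efnb1, Plxnb1, Robo4 and Sema6b with the length trend removed, Efna2, Ephb1, Ephb6 and Ntn3 on both TPM scales and Sema3c on the first; Ephb1, Ntn3 and Robo4 turned without normal replicate 1, and Sema6b without tumour replicate 2. On both TPM scales the falls of Ephb3, Ephb4, Sema3b and Sema5a did not pass, and on log2(TPM + 1) the rise of Sema3e did not. Which scaling holds for these tissues was not tested. No paired analysis was possible because the groups are different mice and their replicate numbers were given in the order of the samples. With 3 tumours and 2 normal libraries, an exact permutation test of a single gene could not go below 0.1. Members with a handful of counts in normal pancreas, such as Sema4f and Sema5b, are known only within wide counting intervals.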
